A study of Mus musculus with 6 samples.

Results

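The genes described here encode the proteins with which cells detect misplaced or foreign RNA and DNA, and the adaptors that carry the alarm. They were selected by gene symbol from the fibroblast expression table, and all 10 symbols (Ddx58, Ifih1, Dhx58, Mavs, Tmem173, Zbp1, Eif2ak2, Trim25, Tlr3 and Irf3) were found among its 34745 genes. The RNA came from primary renal fibroblasts of the mouse, the matrix-forming cells of the kidney interstitium, of WT genotype in all 6 libraries. The fibroblasts of all 6 libraries had been left to adhere for 6 h. In 3 libraries they were cultured alone. In the other 3 they were then kept for 24 h beneath an insert with 0.4 μm pores. The insert held Th17 cells, helper T cells that secrete interleukin-17. Only the fibroblasts below the insert were collected. The Th17 cells had been induced from mouse spleen CD4+ T cells on plates coated with antibodies to CD3 and CD28, with IL-1β, IL-6, IL-23 and an antibody to IFN-γ. The study's mice were Balb/c, although its methods do not tie that strain to the fibroblast or T cell donors. Age, how long the lone fibroblasts were cultured after adherence, and whether they had an empty insert are not given in the sources used here. Whether libraries came from separate animals or wells is not given either, so SD, SE and p-values describe the spread between these libraries.

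RIG-I-like receptors are helicases of the cytoplasm that bind viral RNA and pass the signal to MAVS, an adaptor anchored in the outer membrane of mitochondria. Endosomal Toll-like receptors read nucleic acid that has been taken up, and the enzyme cGAS reports DNA in the cytoplasm through the adaptor STING. These routes meet at kinases that phosphorylate the transcription factor IRF3, which then switches on interferon-β. Many of the sensors, among them RIG-I, MDA5, LGP2, PKR and ZBP1, are themselves encoded by interferon-induced genes, whereas Mavs and Irf3 are usually described as constitutively expressed. In fibroblasts the system is best known from responses to viral infection.

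Promoter sequence is shown for the 3 members whose window held an interferon motif and for Mavs, the 1 member that rose. RefSeq windows of 300 bases on GRCm38.p6, with 250 bases before the transcription start and 50 after it, were matched for 7 of the 10 members. Dhx58, Zbp1 and Tmem173 had no entry. The core of the interferon-stimulated response element, searched on both strands as GAAA, any 2 bases and GAAA, occurred in 3 of these 7 windows, those of Ddx58, Ifih1 and Eif2ak2, and in 3.44% of all 32851 windows. It began 2 bases downstream of the start in Ddx58, where it lies on the strand opposite the gene, 32 bases downstream in Ifih1 and 18 bases downstream in Eif2ak2. The motif TTCNNNGAA, the core of STAT-binding sites, was found in 1 of the 7 windows, as TTCCCAGAA 178 bases before the start of Eif2ak2, and in 8.3% of all windows. Neither motif was found in the windows of Mavs, Trim25, Tlr3 or Irf3, and no match of one overlapped a match of the other. The 3 members with the response element core fell, but so did Tlr3 (log2 fold change −2.33) and Trim25 (−0.84) without an exact match. Stretches that differ from the core by 1 base were not counted. Such stretches are TTTCACTTTG in the window of Tlr3 and TTTCGATTCC in that of Trim25, so a response element there is not excluded. Each line gives the strand of the gene, 5′ to 3′, at chr4:40239776-40240075 (minus strand) for Ddx58, chr2:62646206-62646505 (minus) for Ifih1, chr17:78882523-78882822 (minus) for Eif2ak2 and chr2:131233813-131234112 (plus) for Mavs, with the response element core in capitals. A match describes letters only and was not tested for binding.
Ddx58: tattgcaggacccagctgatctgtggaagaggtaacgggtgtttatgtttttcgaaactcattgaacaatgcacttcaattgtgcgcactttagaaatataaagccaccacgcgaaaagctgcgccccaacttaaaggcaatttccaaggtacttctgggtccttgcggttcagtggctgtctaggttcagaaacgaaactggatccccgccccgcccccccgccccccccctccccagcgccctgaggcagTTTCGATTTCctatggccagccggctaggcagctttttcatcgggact
Ifih1: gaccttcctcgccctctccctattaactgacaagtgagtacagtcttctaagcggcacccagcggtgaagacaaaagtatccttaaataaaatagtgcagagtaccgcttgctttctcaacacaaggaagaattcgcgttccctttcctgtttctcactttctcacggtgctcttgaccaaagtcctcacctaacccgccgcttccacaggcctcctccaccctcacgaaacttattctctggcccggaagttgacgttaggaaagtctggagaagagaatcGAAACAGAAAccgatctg
Eif2ak2: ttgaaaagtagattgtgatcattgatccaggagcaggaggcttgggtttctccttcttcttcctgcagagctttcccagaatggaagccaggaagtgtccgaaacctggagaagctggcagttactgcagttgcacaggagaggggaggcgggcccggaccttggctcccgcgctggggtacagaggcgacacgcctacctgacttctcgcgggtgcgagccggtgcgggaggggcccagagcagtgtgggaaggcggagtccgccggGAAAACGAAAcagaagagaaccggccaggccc
Mavs: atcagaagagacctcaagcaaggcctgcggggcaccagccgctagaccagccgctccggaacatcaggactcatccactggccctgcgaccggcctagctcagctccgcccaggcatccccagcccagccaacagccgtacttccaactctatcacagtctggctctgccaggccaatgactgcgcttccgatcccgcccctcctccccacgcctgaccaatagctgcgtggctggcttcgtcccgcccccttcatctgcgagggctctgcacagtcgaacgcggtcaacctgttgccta

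Total counts were between 12050529 and 13209581 per library, and the first principal component held 76.8% of the variance. CPM are counts scaled to a common library total, with library sizes scaled by TMM, the trimmed mean of M values. A level of 3 counts corresponded to 0.223 to 0.254 CPM. Fibroblast markers were abundant in every library, at a summed 29800 to 31700 CPM alone and 13400 to 14900 CPM with Th17 cells, where 9 of the 10 listed fell and 1 (Dcn) rose. The T cell markers Cd3d, Cd2, Ccr6, Il17a and Il17f had 0 counts in all 6 libraries. Cd3e had 1, 1 and 0 counts alone and 0, 0 and 6 with Th17 cells. Icos had 14, 10 and 8 counts alone and 10, 10 and 11 with Th17 cells. The 15 T cell markers summed to 6.51 to 6.95 CPM alone and 3.42 to 3.72 CPM with Th17 cells. Lck made up most of that sum, at 4.72 ± 0.818 CPM alone and 2.29 ± 0.482 CPM with Th17 cells. The 17 macrophage markers summed to 61.5 to 65.9 CPM alone and 20.2 to 21.5 CPM with Th17 cells, and 6 of the 7 that could be tested fell. Among them Adgre1 had 71, 47 and 55 counts alone and 0 in each cocultured library, and Ptprc 14, 12 and 11 against 0 in each. Cd163 had 0 counts in all libraries, and 5 of the 7 dendritic cell markers (Itgax, Siglech, Xcr1, Clec9a and Cd209a) had none. Endothelial markers (7 listed, 2 at 0 throughout) summed to 9.72 to 9.95 CPM alone and 4.72 to 5.58 CPM with Th17 cells. Of those tested, Kdr fell (65, 74 and 68 counts against 2, 1 and 2), and Pecam1 and Egfl7 did not (log2 fold changes 0.1 and 0.17). Epithelial markers (10 listed, 3 at 0 throughout) summed to 3.89 to 5.69 and 1.49 to 1.71 CPM. Of those tested, Lrp2 fell (49, 38 and 27 counts against 8, 4 and 11) and Krt18 did not (−0.4). For comparison, the 10 sensor and adaptor genes summed to 1990 to 2000 CPM alone and 883 to 913 CPM with Th17 cells. The part of these other cells' transcripts in the results that follow was not tested. In bulk RNA, fewer cells of a type and less RNA per cell cannot be told apart.

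The comparison asked whether fibroblasts kept beneath Th17 cells hold more or less of each sensor transcript than fibroblasts alone. Every RNA sensor among the 10 genes fell, and the adaptor gene Mavs rose. All 10 genes passed the filter on low counts and were tested with the quasi-likelihood method of edgeR, with p-values adjusted over 13088 genes by Benjamini-Hochberg. A gene is said here to have risen or fallen at an adjusted p below 0.05, and the study's own threshold, which also asks for a fold change above 2, is named where it is used. By that threshold 5 members were lower with Th17 cells (Ifih1, Dhx58, Zbp1, Eif2ak2 and Tlr3), against 7.78% of all genes tested, and 0 were higher, against 3.87% (also 5 and 0 by DESeq2). At an adjusted p below 0.05 alone, 8 members were lower, against 20% of all genes, and Mavs was the 1 that was higher, against 17.1%. An unadjusted p below 0.05 gave the same counts, 8 and 1. Irf3 passed neither rule. The groups did not overlap in CPM for 9 members, 8 of them lower with Th17 cells, against 26.1% of all genes, and 1 higher, against 24.3%. The median log2 fold change of the 10 genes was −1.09, beside 0.00 over all genes tested. The members were chosen with earlier results of these data known, so these shares and medians are descriptions and no test of the group.

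**Figure D1:**
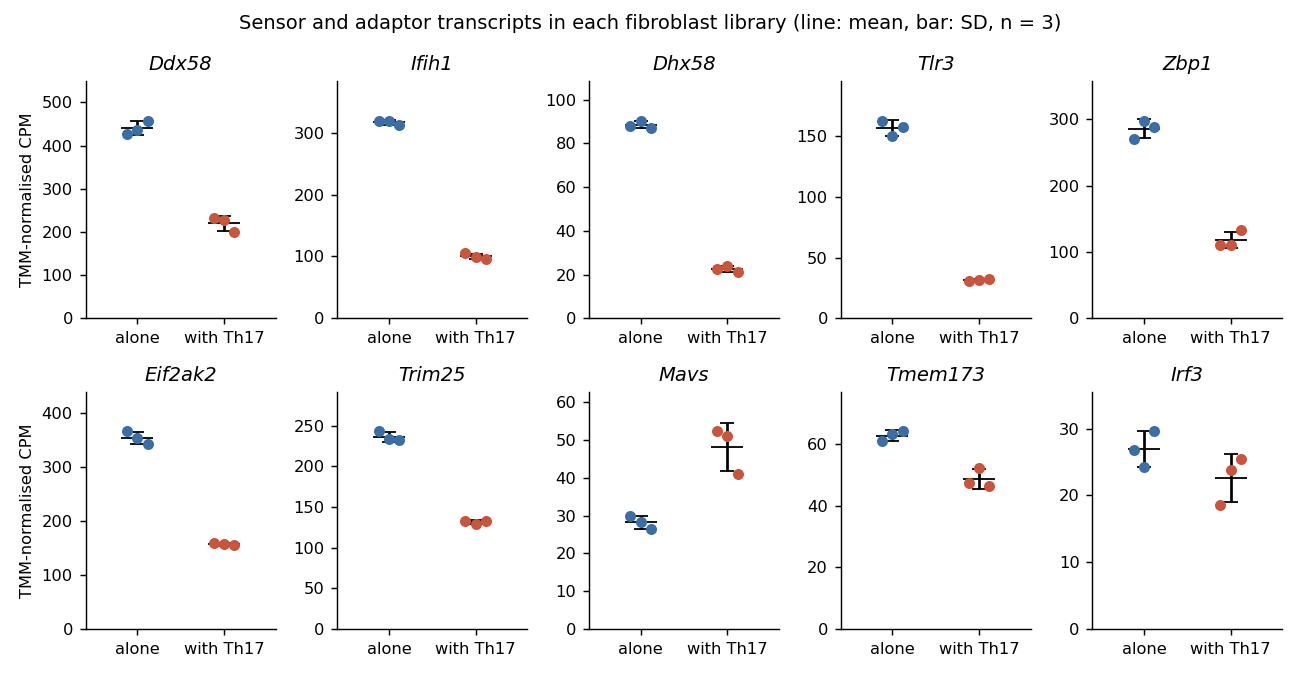
TMM-normalised CPM (vertical axes, each from 0) of the 10 genes in every library, with blue points for fibroblasts alone, red points for fibroblasts with Th17 cells, a line for the mean and a bar for the SD (n = 3). The groups are separate in every panel but that of Irf3, and Mavs is the panel in which the red points are the higher ones.

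The 3 RIG-I-like receptors fell by unequal amounts. Ddx58 (ENSMUSG00000040296, chromosome 4, 40203773 to 40239828, minus strand) encodes RIG-I, which recognises short RNA with an uncapped triphosphate end. It had 5491, 5506 and 5414 counts in the lone libraries and 3116, 2906 and 2626 with Th17 cells. Every cocultured library was below every lone one. Its level fell from 440 ± 16.3 to 220 ± 17.5 CPM (SD, n = 3 each), a log2 fold change of −1.0 (SE 0.0713, 95% interval −1.16 to −0.84, adjusted p = 6.57e-06). To 3 decimals the change was −0.999, so Ddx58 lay just short of the study's fold limit. It passed that limit in 5 of 16 alternative analyses, namely with a replicate block and without lone replicate 1 (log2 fold change −1.02), lone replicate 2 (−1.0), cocultured replicate 1 (−1.04) or cocultured replicate 2 (−1.03).

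Ifih1 (ENSMUSG00000026896, chromosome 2, 62595798 to 62646255, minus strand) encodes MDA5, which assembles into filaments on long RNA duplexes. Its counts were 4107, 4052 and 3700 alone and 1413, 1263 and 1266 with Th17 cells. No cocultured library came near the lone ones, and the level with Th17 cells was 31.6% of that alone (317 ± 3.87 against 100 ± 4.46 CPM, log2 fold change −1.66, SE 0.06, adjusted p = 1.04e-07). Dhx58 (ENSMUSG00000017830, chromosome 11, 100694884 to 100704271, minus strand) encodes LGP2, which lacks the signalling domains of its relatives and tunes their response. It had 1134, 1146 and 1032 counts alone and 304, 303 and 279 with Th17 cells. Again the groups were far apart, and 25.4% of the lone level remained (88.6 ± 1.72 against 22.5 ± 1.29 CPM, log2 fold change −1.97, SE 0.076, adjusted p = 1.37e-07). Dhx58 shares 141 of its 3272 exon bases with Dhx58os on the opposite strand, a gene with 12 to 27 counts per library, and whether counting took account of strand is not given in the sources used here.

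Because these receptors differ in length, their proportions were taken from FPKM (fragments scaled to gene length and library total). Ddx58 made up 44.7%, 44.8% and 46.8% of the summed FPKM of the 3 receptors in lone libraries and 59.5%, 59.5% and 57.8% in cocultured ones. Ifih1 went from 31.7% ± 0.707 to 26% ± 0.96 and Dhx58 from 22.9% ± 0.529 to 15.1% ± 0.54 (SD, n = 3 each), with no overlap between groups in any of the shares. Within a library, the FPKM ratio of Ifih1 to Ddx58 was 0.66 to 0.722 alone and 0.42 to 0.466 with Th17 cells. That of Dhx58 to Ifih1 was 0.714 to 0.731 alone and 0.556 to 0.62 with Th17 cells. The ratios are descriptions with no test. They show that RIG-I transcripts formed the larger part of what was left of the family.

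**Figure D2:**
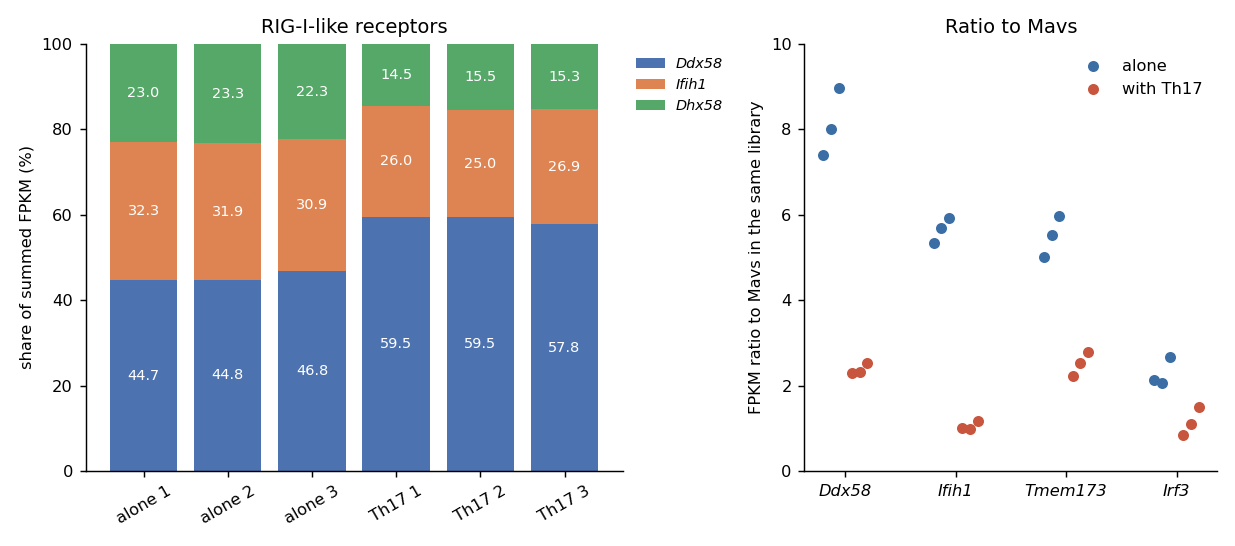
Left, share (%) of each RIG-I-like receptor in the summed FPKM of the 3 in each library (stacked bars); right, FPKM of 4 genes divided by that of Mavs in the same library, for fibroblasts alone (blue) and with Th17 cells (red). The Ddx58 share is 44.7 to 46.8% alone and 57.8 to 59.5% with Th17 cells, and each ratio to Mavs is lower in all cocultured libraries.

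Tlr3 showed the lowest fold change of the 10. It encodes the endosomal receptor for RNA duplexes (ENSMUSG00000031639, chromosome 8, 45395665 to 45410608, minus strand). Its counts were 2107, 1900 and 1867 alone and 410, 401 and 421 with Th17 cells. The cocultured libraries lay within a narrow band far below the lone ones. The level fell from 157 ± 6.73 to 31.3 ± 0.782 CPM, which is 19.9% of the lone level (log2 fold change −2.33, SE 0.0679, 95% interval −2.48 to −2.17, adjusted p = 4.06e-08), at percentile 2.24 of the log2 fold changes of all genes tested. Tlr3 shares 381 of its 5207 exon bases with Gm45542 on the opposite strand. Ticam1, which encodes TRIF, the adaptor that TLR3 signals through, had 263, 267 and 236 counts alone and 350, 347 and 270 with Th17 cells. Those groups overlapped in CPM, and the log2 fold change of 0.26 did not pass (SE 0.121, adjusted p = 0.12).

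Zbp1 and Eif2ak2 encode sensors whose outputs are cell death and a halt in translation. Zbp1 (ENSMUSG00000027514, chromosome 2, 173206612 to 173218923, minus strand) binds nucleic acid in the left-handed Z form. It had 3477, 3777 and 3412 counts alone and 1488, 1418 and 1748 with Th17 cells. All cocultured libraries were below all lone ones, at 118 ± 12.7 against 286 ± 14.5 CPM (log2 fold change −1.27, SE 0.0848, adjusted p = 4.1e-06). ZBP1 can engage the kinase RIPK3, which activates MLKL, the protein that ruptures the membrane in necroptosis. Ripk3 rose slightly, from 134 ± 4.29 to 160 ± 6.69 CPM (log2 fold change 0.26, adjusted p = 0.00961), and Mlkl fell from 128 ± 4.0 to 69.2 ± 5.66 CPM (−0.89, adjusted p = 2.02e-05). The 3 genes of this route thus moved in different directions.

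Eif2ak2 (ENSMUSG00000024079, chromosome 17, 78852564 to 78882573, minus strand) encodes PKR, a kinase that RNA duplexes activate and that phosphorylates the translation factor eIF2α. Its counts were 4714, 4483 and 4058 alone and 2155, 1997 and 2034 with Th17 cells. The groups did not overlap, and the cocultured libraries varied little (157 ± 2.78 CPM, a coefficient of variation of 1.77%, against 354 ± 11.4 CPM alone). The log2 fold change was −1.17 (SE 0.0563, 95% interval −1.3 to −1.04, adjusted p = 5.05e-07), and 44.4% of the lone level remained. Eif2ak2 shares 221 of its 5113 exon bases with Gm26637 and n-R5s29 on the opposite strand, and Gm26637 had 2 to 6 counts per library. Adar, whose product edits RNA duplexes and so limits PKR, fell from 204 ± 25.0 to 123 ± 18.5 CPM (log2 fold change −0.73, adjusted p = 0.0016). Adar shares 1365 of its 8118 exon bases with Chrnb2 on the opposite strand. Prkra, which encodes the PKR activator PACT, was 14.9 ± 0.304 CPM alone and 16.4 ± 0.342 CPM with Th17 cells and did not pass (0.14, adjusted p = 0.309). Among the 9 listed PKR partners and eIF2α kinases, all tested, 2 fell, 0 rose (3 and 0 at an unadjusted p below 0.05, and 0 and 0 at an adjusted p below 0.05 by DESeq2) and the median was −0.01, beside −1.17 for Eif2ak2. The 2 that fell were 22.2% of the list, near the 20% of all genes tested, so the list did not stand out by its count. They were Ppp1r15a (log2 fold change −0.82, adjusted p = 0.0485) and Ppp1r15b (−0.19, adjusted p = 0.0234), which encode phosphatase subunits. Ppp1r15b shares 640 of its 5594 exon bases with Gm26616 on the opposite strand. Both calls depended on single libraries, since that of Ppp1r15a, whose groups overlapped in CPM, was lost when any of 4 libraries was left out (lone replicates 1 and 3, cocultured replicates 2 and 3; highest adjusted p = 0.145) and that of Ppp1r15b when any but cocultured replicate 3 was (highest adjusted p = 0.0922). Without lone replicate 2 or cocultured replicate 1, the log2 fold change of Ppp1r15a was −1.01 or −1.09. These genes were named after their values were seen, as are the genes given below for lists in which 5 or fewer passed in a direction.

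Trim25 (ENSMUSG00000000275, chromosome 11, 88999376 to 89020293, plus strand) encodes a ubiquitin ligase described as an activator of RIG-I. It had 3133, 2954 and 2746 counts alone and 1795, 1643 and 1748 with Th17 cells, with no overlap between groups. Its level fell from 236 ± 6.02 to 132 ± 2.41 CPM (log2 fold change −0.84, SE 0.0563, 95% interval −0.97 to −0.71, adjusted p = 4.19e-06), short of a fold of 2. The FPKM ratio of Trim25 to Ddx58 was 1.01 ± 0.0595 alone and 1.13 ± 0.103 with Th17 cells, and these ratios overlapped. Rnf135, which encodes Riplet, another ligase for RIG-I, fell from 19.5 ± 2.19 to 10 ± 1.77 CPM (−0.96, adjusted p = 0.00105).

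**Figure D3:**
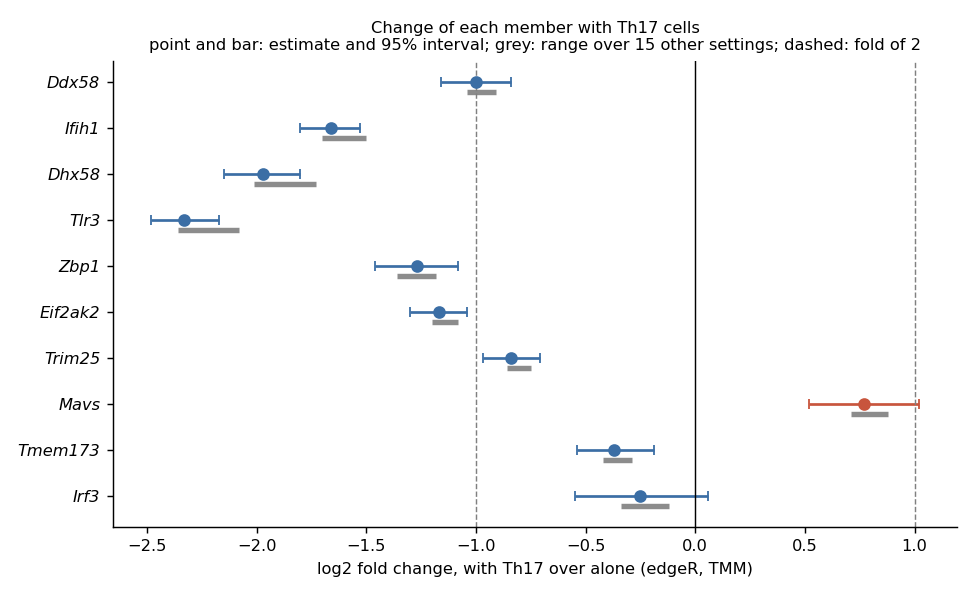
Log2 fold change with Th17 cells over alone (horizontal axis) for each gene, with its 95% interval from edgeR, a grey bar for the range over 15 other settings and dashed lines at a fold of 2. Tlr3 is lowest at −2.33, Ddx58 lies on the dashed line, Mavs is at 0.77, and the interval of Irf3 includes 0.

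Of the adaptors, Mavs was the 1 gene among the 10 that rose, and Tmem173 fell by less than any other member that passed. Mavs (ENSMUSG00000037523, chromosome 2, 131234063 to 131248025, plus strand) had 385, 357 and 313 counts alone and 704, 650 and 538 with Th17 cells. Each cocultured library was above each lone one, although the third cocultured library, at 40.9 CPM, stood below the other two. Its level rose from 28.2 ± 1.71 to 48.1 ± 6.26 CPM, 1.71-fold (log2 fold change 0.77, SE 0.11, 95% interval 0.52 to 1.02, adjusted p = 0.000554), at percentile 93.5 of all genes tested. Leaving out each library in turn gave 0.71 to 0.88. With its upstream receptors lower, the FPKM ratio of Ddx58 to Mavs went from 7.4, 8.0 and 8.98 in the lone libraries to 2.3, 2.32 and 2.53 in the cocultured ones. The ratio of Ifih1 to Mavs went from 5.35, 5.69 and 5.92 to 1.01, 0.974 and 1.18, so these transcripts came to about equal FPKM.

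Tmem173 (ENSMUSG00000024349, chromosome 18, 35733678 to 35740554, minus strand) encodes STING, the adaptor of the endoplasmic reticulum that answers the messenger made by cGAS. It had 785, 800 and 760 counts alone and 638, 666 and 610 with Th17 cells. Without overlap between groups, it fell from 62.8 ± 1.70 to 48.7 ± 3.16 CPM, 77.6% of the lone level (log2 fold change −0.37, SE 0.0758, 95% interval −0.54 to −0.19, adjusted p = 0.00471). Mb21d1, the gene of cGAS, had 271, 276 and 253 counts alone and 161, 125 and 106 with Th17 cells and was lower past the study's threshold (21.4 ± 0.387 against 9.95 ± 1.96 CPM, −1.10, adjusted p = 0.000342). It did not pass the fold limit without cocultured replicate 3 (−0.97), or under further settings named at the end. It shares 201 of its 4126 exon bases with Gm8093 on the opposite strand.

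Irf3 (ENSMUSG00000003184, chromosome 7, 44997648 to 45002847, plus strand) had 346, 306 and 350 counts alone and 250, 303 and 335 with Th17 cells. These groups overlapped, at 26.9 ± 2.71 and 22.6 ± 3.59 CPM. The log2 fold change of −0.25 did not pass (SE 0.135, 95% interval −0.55 to 0.06, adjusted p = 0.184), and the interval leaves room for a fall of up to 0.55. Its libraries varied by 10.1% alone and 15.9% with Th17 cells, against 5.47% and 5.81% for counting noise. Irf3 shares 88 of its 3442 exon bases with Bcl2l12 on the opposite strand, which had 59 to 88 counts per library. Irf7, the interferon-induced relative that amplifies the response, had 4671, 4684 and 4396 counts alone and 1408, 1190 and 1236 with Th17 cells and fell from 368 ± 4.89 to 97.4 ± 6.32 CPM (−1.92, adjusted p = 7.99e-08). Of the kinases that phosphorylate both factors, Tbk1 fell from 72.8 ± 3.02 to 50.3 ± 1.34 CPM (−0.53, adjusted p = 0.000328), and Ikbke, at 63.2 ± 3.41 and 71.1 ± 5.28 CPM, did not pass (0.17, adjusted p = 0.131).

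Ordered by FPKM, lone fibroblasts held most of Eif2ak2 (59.1 ± 1.72) and Zbp1 (57.8 ± 3.02), which overlapped, then Trim25 (39.7 ± 0.912) and Ddx58 (39.4 ± 1.59), which also overlapped. Ifih1 (27.4 ± 0.264), Tlr3 (26.9 ± 1.13) and Tmem173 (26.7 ± 0.802) came next and each overlapped its neighbour. Below them Dhx58 (19.8 ± 0.364), Irf3 (11.1 ± 1.14) and Mavs (4.86 ± 0.28) were separate from each other in every library. With Th17 cells the span narrowed. Eif2ak2 (27.4 ± 0.455), Zbp1 (25.0 ± 2.83), Trim25 (23.2 ± 0.553), Tmem173 (21.6 ± 1.27) and Ddx58 (20.6 ± 1.54) formed a run in which each overlapped the next. A second run held Irf3 (9.74 ± 1.56), Ifih1 (9.06 ± 0.391) and Mavs (8.68 ± 1.09), and the last Tlr3 (5.61 ± 0.155) and Dhx58 (5.27 ± 0.268). By FPKM, Mavs thus moved from the lowest place to a level above Tlr3 and Dhx58 in every cocultured library. The order of genes, with the place of Mavs beside Irf3 and Ifih1, rests on the lengths behind the deposited FPKM. For some members, Mavs among them, those lengths differ from the annotated exon bases, and no other length was tried. The change of a gene between groups does not depend on them.

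**Figure D4:**
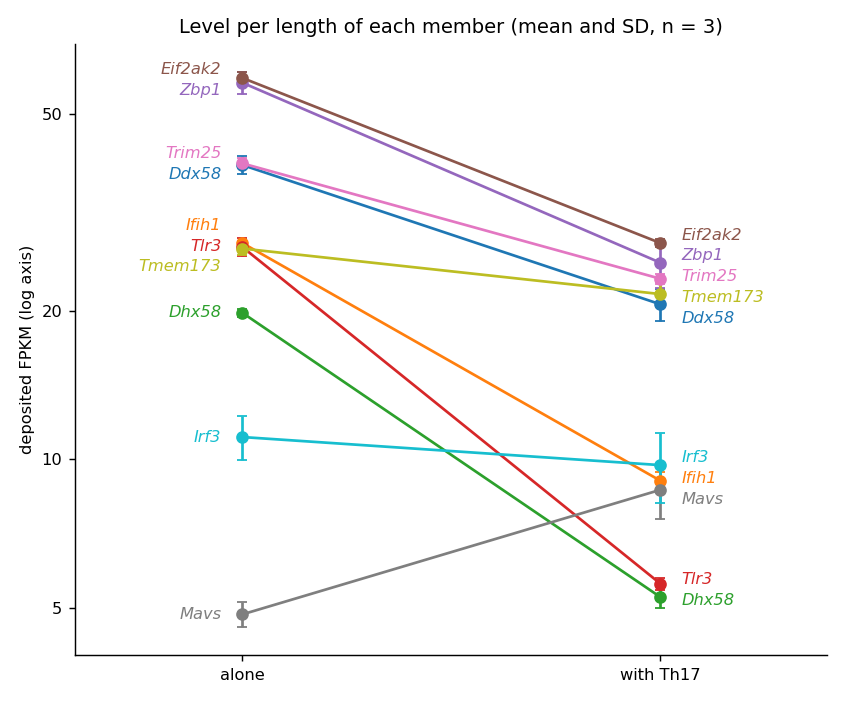
Mean FPKM of each gene (vertical log axis) in fibroblasts alone and with Th17 cells, with bars for the SD (n = 3) and a line joining the means of a gene. The lines of Tlr3, Dhx58 and Ifih1 are the steepest downward, from 26.9, 19.8 and 27.4 to 5.61, 5.27 and 9.06 FPKM, and that of Mavs runs upward, from 4.86 to 8.68.

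In the 6 lists of other genes of the pathway, 108 genes were listed and 83 could be tested, of which 8 were lower past the study's threshold and 0 higher (7 and 0 by DESeq2). The lower ones were 9.64% of those tested, beside 7.78% of all genes. At an adjusted p below 0.05 alone, 24 fell (28.9%, beside 20% of all genes), 13 rose (15.7%, beside 17.1%) and the median was −0.04. No test was made of these shares. At an unadjusted p below 0.05 the counts were 28 and 15. Of 19 endosomal, DNA and helicase sensors tested out of 22, 4 fell (21.1%) and 3 rose (15.8%), with a median of 0.01. Those past the study's threshold were Mb21d1, the helicase gene Ddx60 (1452, 1250 and 1302 counts against 290, 228 and 330, log2 fold change −2.31, adjusted p = 8.46e-07) and Tlr7, an endosomal receptor for RNA (16, 40 and 37 counts against 9, 6 and 9, −2.02, adjusted p = 0.00565). The low counts of Tlr7 leave its size uncertain (SE 0.433). The 1 other gene that fell was Unc93b1 (−0.39, adjusted p = 0.0133), whose product escorts Toll-like receptors to endosomes. The 3 that rose, by less than a fold of 2, were the helicase genes Dhx15 (0.19, adjusted p = 0.0395), Dhx36 (0.37, adjusted p = 0.011) and Ddx21 (0.26, adjusted p = 0.00466). The call of Unc93b1 was lost without lone replicate 3 (adjusted p = 0.0577) and that of Dhx15 without any library but cocultured replicate 2 (highest adjusted p = 0.165).

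Of the 19 adaptors, kinases and transcription factors, 7 fell (36.8%) and 3 rose (15.8%), with a median of −0.11. Past the study's threshold were Irf7 (described above), Ticam2 and Myd88. Myd88, the adaptor of most Toll-like receptors, had 737, 730 and 745 counts alone and 373, 380 and 407 with Th17 cells (log2 fold change −1.01, adjusted p = 1.52e-05). Myd88 fell short of the fold limit without lone replicate 3 or cocultured replicate 1 (−0.96 for each), and under further settings named at the end. Myd88 shares 290 of its 2576 exon bases with Acaa1a on the opposite strand. Ticam2, a bridging adaptor, had 15, 14 and 11 counts against 1, 8 and 2 (−1.89, adjusted p = 0.0316). Its call was lost when any library other than cocultured replicate 2 was left out (adjusted p between 0.0623 and 0.0893), and without that library its log2 fold change was −3.14. It shares 838 of its 5792 exon bases with Tmed7 on the same strand. Those that rose were Ripk3, Traf3 (0.41, adjusted p = 0.0117), which encodes a ligase that links MAVS to TBK1, and Ikbkg (0.96, adjusted p = 0.000795), which encodes NEMO. Ikbkg shares 418 of its 8110 exon bases with G6pdx on the opposite strand, and it passed the fold limit without lone replicate 2 (1.01), cocultured replicate 1 (1.08) or cocultured replicate 3 (1.0).

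Regulators of RIG-I, MAVS and STING held 0 genes past the study's threshold among 22 tested of 23 (0 also by DESeq2), while 4 fell and 5 rose at an adjusted p below 0.05, and 5 and 6 at an unadjusted p below 0.05 (median 0.06). The 4 and 5 were 18.2% and 22.7% of those tested, near the 20% and 17.1% of all genes tested. The 5 were Cyld (0.44, adjusted p = 0.00186), which encodes a deubiquitinase that restrains RIG-I, the mitochondrial fusion genes Mfn2 (0.39, adjusted p = 0.00209) and Mfn1 (0.29, adjusted p = 0.0499), the import receptor gene Tomm70a (0.37, adjusted p = 0.00126) and the ligase gene Rnf5 (0.29, adjusted p = 0.0337). Nlrx1, another mitochondrial regulator of MAVS in the list, did not pass (−0.04, adjusted p = 0.846). Besides Rnf135, those that fell were Zc3hav1 (−0.55, adjusted p = 0.000941), Pcbp2 (−0.23, adjusted p = 0.0132) and Trim56 (−0.2, adjusted p = 0.0383). Each of these rises and falls was smaller than a fold of 2, and Rnf135 passed that limit without lone replicate 1 (−1.05) or cocultured replicate 1 (−1.11). The calls of Mfn1, Rnf5 and Trim56 were lost when any library but cocultured replicate 3 was left out (highest adjusted p = 0.177, 0.114 and 0.135), and that of Pcbp2 without lone replicate 2 (adjusted p = 0.0507). Pcbp2 shares 1884 of its 5203 exon bases with Gm26518, Gm27406 and Map3k12. Rnf5 shares 366 of its 1483 with Gm20463 on the opposite strand. Of 14 genes that edit or remove nucleic acid, all tested, 7 fell (50%) and 2 rose (14.3%), with a median of −0.41. The 2 were Rnaseh2c (0.56, adjusted p = 0.0372) and Ttc37 (0.29, adjusted p = 0.0143). The call of Rnaseh2c was lost without any library but lone replicate 2 or cocultured replicate 2 (highest adjusted p = 0.131), and that of Ttc37 without lone replicate 1 or 2 (highest adjusted p = 0.0622). Rnaseh2c shares 426 of its 1715 exon bases with Kat5 on the opposite strand. Samhd1, whose product depletes the building blocks of DNA, fell from 226 ± 3.30 to 67.9 ± 7.76 CPM (log2 fold change −1.73, adjusted p = 6.24e-07). Trex1, a DNA exonuclease gene, was counted at 499, 457 and 452 alone and 17, 65 and 15 with Th17 cells (−3.92, adjusted p = 6.71e-05, and −4.96 without cocultured replicate 2). All 1147 of its exon bases lie within Atrip on the same strand, so how its fragments were assigned is uncertain. None of the 21 interferon genes had enough counts for a test, and 16 had 0 in every library. Ifnb1, the target of IRF3, had 4, 6 and 4 counts alone and 0, 4 and 3 with Th17 cells, a difference not detectable at this depth, and Ifng had 0 in all 6.

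**Figure D5:**
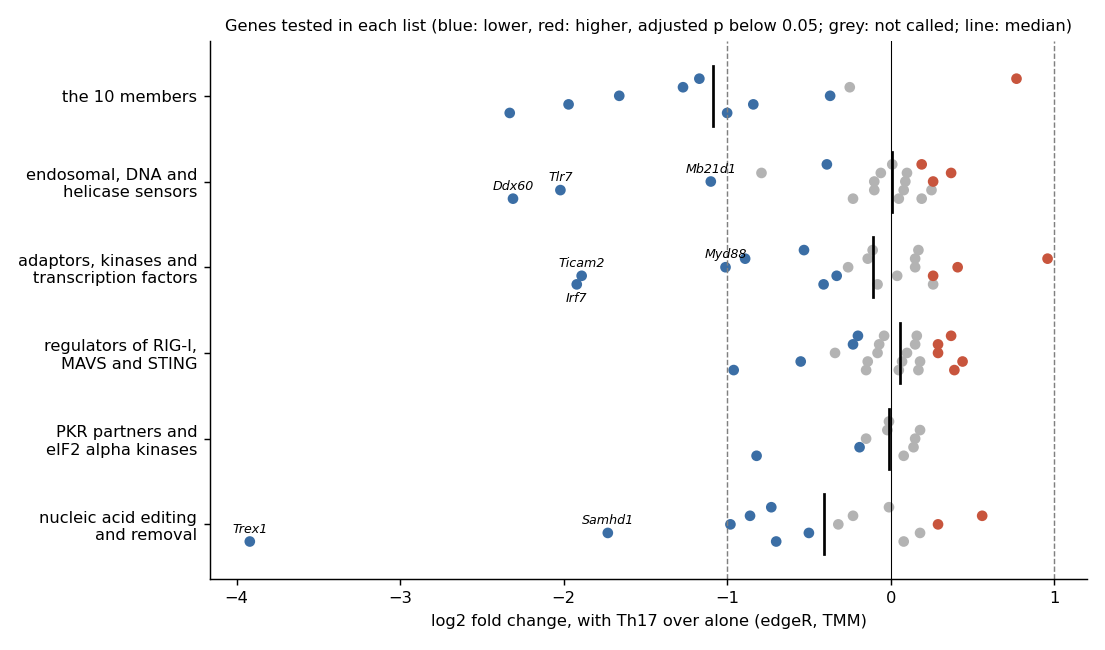
Log2 fold change with Th17 cells over alone (horizontal axis) for the genes tested in each list, with blue for lower and red for higher at an adjusted p below 0.05, grey for neither, a black line for the median and dashed lines at a fold of 2. The 10 members have a median of −1.09, and the other lists have medians between −0.41 and 0.06.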

How the data were processed

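Libraries of 3 lone and 3 cocultured fibroblast samples were made with the VAHTS kit for Illumina. After quality filtering (Seqtk), the authors aligned with HISAT2 2.0.4, used StringTie 1.3.3b and deposited raw fragment counts per gene. The build, per the submitters' processing notes, was mm10. Strand use and the assignment of shared fragments were not stated. The authors also deposited FPKM. Dividing the count by FPKM and the library total gave 1 length per gene, within 0.1%, so FPKM carries no TMM factor. This held in all 8910 genes with at least 100 counts in every library. For some members that length differs from the annotated exon bases. In GENCODE's GRCm38 annotation, 34267 identifiers were found, 99.9% of them overlapping the position listed.

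Groups came from sample titles. All 34745 rows named a gene. Libraries within a group differed by a chi-square per gene of at least 6.38, where counting noise gives 1, so none was counted as a duplicate. The tests used edgeR 4.0.16 under R 4.3.3 (filterByExpr, minimum count 10; TMM; glmQLFit and glmQLFTest; Benjamini-Hochberg), with a common dispersion of 0.0136. The SE is the log2 fold change over the square root of F. The alternatives were DESeq2 1.42.0, other scalings and filters, glmTreat, a replicate block, leaving out each library, and limma 3.58.1 on log2(FPKM + 1) or log2(FPKM + 0.1). The tests were checked on simulated counts with 200 changed genes and 1 common dispersion. At an adjusted p below 0.05, edgeR called 97.5% of the changed genes, DESeq2 92.5% and limma on log2(FPKM + 1) 96%. The unchanged genes called numbered 13, 17 and 8. The median error in log2 fold change was 0.112, 0.113 and 0.335. In the data 20% of genes fell and 17.1% rose, a larger share than was simulated. Promoter windows came from RefSeq, GRCm38.p6. Python 3.11.15, pandas 2.3.3 and matplotlib 3.10.9 served for tables and figures.

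The members, gene lists and tests were chosen with earlier results of these data known. From each pathway list, up to 5 genes past the threshold with the largest change are named, with genes whose role pairs with a member whether they passed or not. cGAS was found under its older symbol Mb21d1.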

Additional observations from a re-analysis of the deposited data

How the results depend on the processing

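Under 15 alternatives, each of the 10 members kept its direction and its side of an adjusted p of 0.05 (150 values). Irf3 ranged from −0.34 to −0.12 (adjusted p 0.0899 to 0.466) and Tmem173 from −0.42 to −0.29 (highest adjusted p 0.0216). The scaling that moved the median of all genes most, library size only, shifted it by 0.07. The number of members lower past a fold of 2 was 5 or 6 when each library was left out and 6 with the replicate block, the sixth being Ddx58. Same-numbered libraries did not deviate together (correlations 0.0157, −0.0256 and −0.0036). With 3 libraries a group this cannot exclude a small shared effect, and the labels do not say whether the numbers pair libraries. The replicate block changed no other call among the members. The members' median was −0.99 with limma on log2(FPKM + 1) and −1.02 on log2(FPKM + 0.1), where the median of all genes was 0.05 and 0.06; the cause was not tested. Other pathway genes lower past the threshold numbered 4 and 5 there and 4 with glmTreat, which tests against a fold of 2, beside 8. Mb21d1, Myd88 and Tlr7 were lost in all of these settings, and Ticam2 with limma on log2(FPKM + 1) and with glmTreat. Ticam2 was also lost by DESeq2 (adjusted p = 0.0503), and Myd88 by library size only (−0.94) and by upper quartile scaling. Other pathway genes higher past the threshold numbered 0, but 1 by library size only and 0 to 1 when each library was left out. That gene was Ikbkg (1.02 by library size only). The limit of 3 counts covers counting error only. The lowest count of a member in a library was 250, for Irf3.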
